A study of Rattus norvegicus with 24 samples.

Results

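The genes of oxidative phosphorylation were followed across rat lung tissue from a model of lung cancer made with smoky coal. Members were chosen by name alone: every row whose symbol starts with mt- (transcribed from the mitochondrial genome) or with the usual stems of the nuclear subunits (Ndufa, Ndufb, Ndufc, Ndufs, Ndufv, Sdha to Sdhd, Uqcr, Cox4 to Cox8 and Atp5). They were 135 of the 30667 rows. Of these, 27 were mitochondrially encoded (12 protein genes, 2 ribosomal RNAs and 13 transfer RNAs) and 108 were nuclear. The nuclear rows held 36 subunits of complex I, 4 of complex II, 8 of complex III, 18 of complex IV and 17 of complex V, 12 assembly factors and 13 rows named as copies or pseudogenes. Reads of such near-identical copies can be shared with the parent gene, so their values are uncertain. All 135 rows entered the fits. A mean of at least 10 was reached by 128 of them, and the 7 below it were transfer RNAs.

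The 24 samples were 6 of each of the letters A, B, C and G, numbered 1 to 6 within a letter. All 24 carried the same labels, lung tissue of Rattus norvegicus and smoky coal, so no untreated group was named. The labels give no meaning for the letters or the numbers, and no strain, age, sex, dose or time. They also do not say whether the samples were separate animals, so a p-value here measures only the spread between these samples.

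Oxidative phosphorylation makes most of a cell's ATP. Complexes I and II (NADH and succinate dehydrogenase) pass electrons through complex III (cytochrome bc1) to complex IV (cytochrome c oxidase), and the proton gradient this builds drives ATP synthase, complex V. Complexes I, III, IV and V are built from subunits of both genomes, whereas complex II is wholly nuclear. Several complex IV subunits have tissue forms: Cox6a2, Cox7a1 and Cox8b are the heart and skeletal muscle forms of Cox6a1, Cox7a2 and Cox8a, and Cox4i2 is a form of Cox4i1 known from lung.

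Short promoter motifs, which the choice by name did not use, were counted in the nuclear genes; most promoters lacked each of them, and no enrichment was tested. RefSeq promoters (build GRCr8, 250 bases before to 50 after the start) were found for 85 of the 95 nuclear members that are not copies. The motif of nuclear respiratory factor 1 (GCGCA, any base, then GCGC, searched on both strands), a regulator of respiratory genes, was in 19 of these 85 windows, or 22.4%, against 4.82% of the 27457 promoters of all genes. The YY1 motif (AAGATGGCG) was in 11, or 12.9%, against 1.99% of all. The GC box (GGGCGG) was in 38, or 44.7%, against 36.0%. A loose form of the motif of MEF2, a muscle factor (CTA, any 4 bases, then TAG), was in 2, Cox6a2 and Cox5b. That was 2.35% against 4.14%. The 4 middle bases were not limited to A or T, so these counts are not counts of the stricter MEF2 motif. A match describes the letters only. The 250 bases before the start are given for 4 members that return in the results, with the matched letters in capitals: Atp5k and Ndufa11 (nuclear respiratory factor 1 motif; Ndufa11 holds 2 overlapping matches), Cox6a2 (MEF2 motif) and Ndufa4l2 (GC box). They lie at chr14:1464610-1464859, plus strand (Atp5k, listed by RefSeq as Atp5me), chr9:1637364-1637613, plus strand (Ndufa11), chr1:192219717-192219966, minus strand (Cox6a2) and chr7:65241919-65242168, plus strand (Ndufa4l2).
Atp5k: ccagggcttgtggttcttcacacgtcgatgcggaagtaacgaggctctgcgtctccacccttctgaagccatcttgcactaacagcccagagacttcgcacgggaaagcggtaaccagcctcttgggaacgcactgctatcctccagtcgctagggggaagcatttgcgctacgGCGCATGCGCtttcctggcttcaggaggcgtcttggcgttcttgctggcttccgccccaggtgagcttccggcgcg
Ndufa11: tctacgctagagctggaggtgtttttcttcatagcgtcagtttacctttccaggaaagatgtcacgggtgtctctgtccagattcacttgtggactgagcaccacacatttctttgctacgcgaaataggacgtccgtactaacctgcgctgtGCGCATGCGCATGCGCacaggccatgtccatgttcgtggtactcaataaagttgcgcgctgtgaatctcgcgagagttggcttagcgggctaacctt
Cox6a2: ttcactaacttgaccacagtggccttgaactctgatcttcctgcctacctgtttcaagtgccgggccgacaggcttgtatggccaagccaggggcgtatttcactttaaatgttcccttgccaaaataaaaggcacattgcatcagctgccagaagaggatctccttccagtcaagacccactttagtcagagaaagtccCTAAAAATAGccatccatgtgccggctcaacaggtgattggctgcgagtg
Ndufa4l2: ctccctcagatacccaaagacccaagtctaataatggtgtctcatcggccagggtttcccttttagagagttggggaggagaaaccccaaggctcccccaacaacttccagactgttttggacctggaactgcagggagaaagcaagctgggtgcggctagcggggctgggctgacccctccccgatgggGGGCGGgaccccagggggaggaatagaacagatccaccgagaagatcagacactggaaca

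The deposited values summed to between 61717516 and 66007148 per sample, a ratio of 1.07, so they had been scaled and the read depth is unknown. The alveolar type 2 marker Sftpc was between 603887 and 932776 in every sample. Some libraries held RNA of other tissues, with 3 standing farthest apart. Library A2 had fat RNA: Ucp1, the uncoupling protein of brown fat, was 6881 there, 273 in A4 and at most 27.2 elsewhere, and Adipoq, a fat hormone, was 2283. Library A4 had skeletal muscle RNA (Acta1 at 41069), fat RNA (Adipoq at 1404) and squamous epithelium markers (a mean log2 score of 4.15, against at most 0.32 elsewhere), and B4 had skeletal muscle RNA (Acta1 at 11389, against at most 2119 outside A4 and B4). Less fat RNA was in B5 (Adipoq at 399) and G5 (154), and the heart muscle markers summed to 27809 in G5 and 69696 in A4. Counts of called members that rest on A2, A4 or B4 are given with and without them.

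Mitochondrially encoded rows took between 0.278% and 0.473% of a sample's summed values and nuclear rows between 0.564% and 0.794%. These shares are not corrected for gene length, so they compare samples, not genes. The submitters' processing notes name a mouse build for these rat samples. What this did to the size of the shares and of their ratio was not tested. The mitochondrially encoded share was lowest in B1 (0.278%), C1 (0.306%) and A1 (0.314%), and highest in G2 (0.473%) and A2 (0.469%). By number, it was 0.316% ± 0.0368 in number 1 and 0.432% ± 0.0452 in number 2 (SD, n = 4 each). G1, at 0.366%, was not low, and A4, at 0.431%, exceeded B2 (0.390%) and C2 (0.396%), so numbers 1 and 2 each overlapped the rest. The nuclear share was 0.666% ± 0.0890 in number 2, with A2 alone at 0.794%, and 0.577% ± 0.00946 in number 6. The ratio of the mitochondrially encoded to the nuclear sum ran from 0.455 in B1 to 0.774 in G2. It was 0.651 to 0.687 in number 6 and 0.538 ± 0.0761 in number 1.

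**Figure D1:**
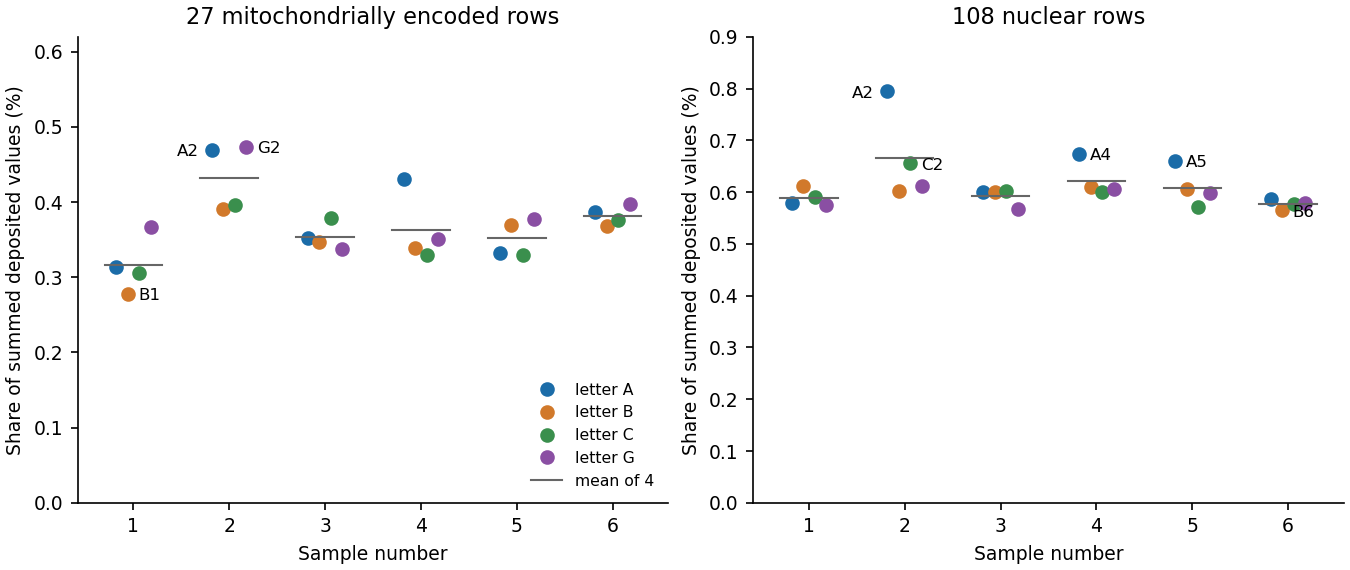
Share of each sample's summed deposited values (%, y axes from 0) taken by the 27 mitochondrially encoded rows (left) and the 108 nuclear rows (right), by sample number. Points are single samples coloured by letter and lines are means of 4; A2 and G2 are the highest points on the left (0.469% and 0.473%), and A2 stands alone on the right at 0.794%.

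No member was called by letter. None of the 135 passed the F test across the 4 letters (limma-trend on log2(value + 1), Benjamini-Hochberg adjusted p under 0.05 over all rows), where 0.00652% of all rows passed. At an unadjusted p under 0.05 there were 5, beside 3.91% of all rows. None was called in any of the 6 pairs of letters either, in the same fit, which had no term for the number. The share of all rows called was 0.00% within A, B and C, 0.00652% for G against A and for G against C, and 0.00326% for G against B. Unadjusted p-values under 0.05 numbered 15 in B relative to A (3.58% of all rows), 11 in C relative to A (2.98%) and 1 in C relative to B (1.82%). For G they numbered 28 relative to A (8.15%), 0 relative to B (3.67%) and 2 relative to C (4.03%), out of 135 members each.

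Against A, the nuclear rows leaned below 0 in each of B, C and G, without any call. All of these comparisons with A use the same A samples, so they are not independent. The nuclear share was 0.794% in A2, 0.674% in A4 and 0.661% in A5, the highest of all samples. It was 0.579% to 0.599% in A1, A3 and A6. The log2 difference was negative for 105 of 108 nuclear rows in B (median -0.10) and 103 in C (median -0.11). The nuclear medians of G against B and of G against C were both -0.03, so the lean was not particular to G. In G against A it was negative for 102 of 108 nuclear rows, with a median of -0.12. The G against A median was 0.006 for the mitochondrially encoded rows and -0.01 for all rows. The smallest p belonged to Atp5l2-ps, a row named as a pseudogene of an ATP synthase subunit, at -0.39 (SE 0.11, adjusted p = 0.345). Without A2, A4 and B4 the nuclear median was -0.06, with 93 of 108 negative and 3 nuclear rows at an unadjusted p under 0.05. In G against B and G against C all 12 mitochondrially encoded protein genes had positive differences, with medians of 0.14 and 0.13, and none was called. These comparisons share the G samples.

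In the F test across the 6 numbers, with letter as a term, 53 of 135 members passed, or 39.3%, beside 31.5% of all rows. Members and all rows differ in level. A mean of at least 10 was reached by 128 of 135 members and by 21922 of 30667 rows. Whether gaps between such shares, here and elsewhere in the text, go with level was not tested. By class, 10 of 12 mitochondrially encoded protein genes, 12 of 36 complex I, 1 of 4 complex II, 3 of 8 complex III, 11 of 18 complex IV and 9 of 17 complex V subunits passed, as did 1 of 2 ribosomal RNAs and 0 of 13 transfer RNAs. Without A2, A4 and B4 there were 31 members, 12 mitochondrially encoded and 19 nuclear. The median share of a row's variance lying between numbers was 56.9% for the mitochondrially encoded protein genes, 42.0% for the nuclear rows, 37.1% for all rows and 53.7% for rows with a mean of at least 1000. Labels unrelated to the values would give a mean share of 21.7%, which is not a median and so only a rough mark. Between letters the medians were 11.9%, 18.0% and 9.45% for the mitochondrially encoded protein genes, the nuclear rows and all rows. Unrelated labels would give a mean of 13.0% here, again not a median, so small gaps from it say nothing.

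**Figure D2:**
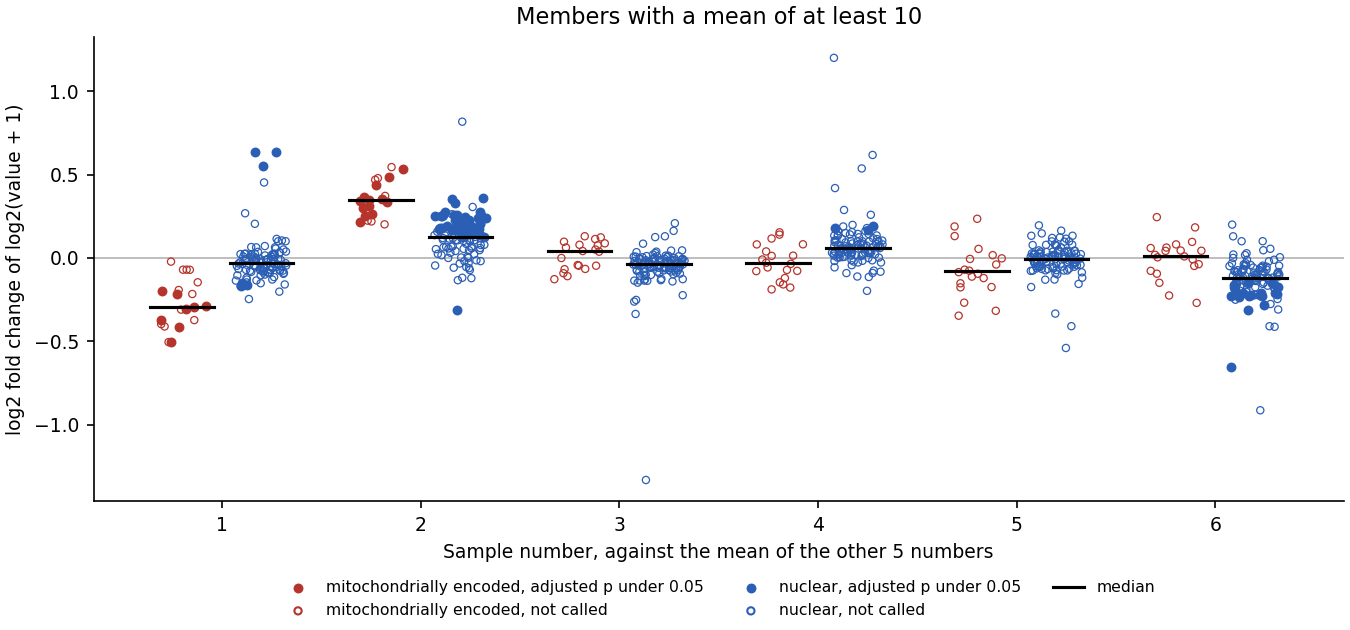
Log2 fold change on the log2(value + 1) scale (y axis) of each member with a mean of at least 10, in each sample number against the mean of the other 5 (x axis); filled points passed the adjusted p of 0.05 and bars are medians. Mitochondrially encoded rows lie below 0 in number 1 and mostly above 0 in number 2, and nuclear rows are shifted below 0 in number 6.

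In number 1, 8 of 27 mitochondrially encoded rows fell and 3 nuclear forms of complex IV subunits rose. Against the mean of the other 5 numbers, 14 of 135 members were called, or 10.4%, beside 11.9% of all rows; 3 were higher (5.62% of all rows) and 11 lower (6.25% of all rows). The lower ones were 8 mitochondrially encoded rows, Cox4i1, and the complex I subunits Ndufa6 and Ndufs7. All 27 mitochondrially encoded rows had negative differences, with a median of -0.31, beside -0.03 for nuclear rows and -0.02 for all rows. The median was -0.22 for the 12 protein genes and -0.40 for the 13 transfer RNAs, of which 0 were called.

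Cox4i2, the lung form of the regulatory subunit 4 of cytochrome c oxidase, was 2499 in A1, 2750 in B1, 2530 in C1 and 2804 in G1. The other 20 samples ran from 1279 to 1919, so the groups did not overlap. The log2 fold change was 0.64 (SE 0.09, limma adjusted p = 0.000103). Its general form Cox4i1 was 12653, 14155, 12979 and 13375 in the same 4 samples, inside the range of the other 20, 13073 to 17301, but for A1 and C1 just below it. Cox4i1 fell by 0.15 on the log2 scale (SE 0.05, limma adjusted p = 0.0445), a call lost in 18 of 32 alternatives.

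Ndufa4l2, a relative of the complex IV subunit Ndufa4 that is known as a hypoxia-inducible gene, was 2205 in A1, 2327 in B1, 2162 in C1 and 2204 in G1, against 1208 to 1842 in the other 20. It rose by 0.55 (SE 0.08, limma adjusted p = 0.000173), again without overlap. Cox6b2, known as the testis form of subunit 6b, was 324, 253, 242 and 193, and G1 lay within the range of the other samples, 85.5 to 222. It rose by 0.63 (SE 0.14, limma adjusted p = 0.00472). Cox4i2 and Ndufa4l2 were the only 2 members with all 4 values above the other 20 samples, and Ndufa6 the only member with all 4 below (2263 to 2472 against 2496 to 3077). Over all rows these shares were 1.35% and 0.734%, and over members 1.48% and 0.741%.

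Among the mitochondrially encoded genes of number 1, mt-Co3, subunit 3 of complex IV, was 2032 in A1, 1957 in B1, 1837 in C1 and 2477 in G1, against 2126 to 3783 in the others. It fell by 0.41 on the log2 scale (SE 0.07, limma adjusted p = 0.000562), with G1 inside the range of the others. The 12S ribosomal RNA mt-Rnr1 was 11920, 10106, 10476 and 13062, with G1 again among the other samples, and fell by 0.38 (SE 0.07, limma adjusted p = 0.000772). The complex I gene mt-Nd4l fell by 0.50 (SE 0.09, limma adjusted p = 0.00123), from a mean near 393 over all samples. By contrast, mt-Nd6 (-0.02), mt-Nd3 (-0.07) and mt-Atp6 (-0.07) had small differences that did not pass, with adjusted p = 0.933, 0.825 and 0.627 in limma.

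Leaving out A1 or B1 left 8 members called, with 5 and 3 mitochondrially encoded rows among them, and leaving out A2, A4 and B4 left 13. Other markers moved with number 1: 8 of 9 pericyte and smooth muscle markers rose, such as Notch3 by 0.64 (SE 0.07, limma adjusted p = 8.91e-06), and Higd1b by 0.56 (SE 0.08, limma adjusted p = 8.75e-05). Their mean log2 score was 0.30 to 0.61 in number 1 and -0.44 to 0.20 elsewhere, and their summed value 64325 to 75440 against 37477 to 56929. Also, 5 of 7 endothelial markers rose, and 5 of 6 T cell and 5 of 6 red blood cell markers fell. The part of these cell types in the Cox4i2, Ndufa4l2 and mitochondrially encoded results was not tested. In bulk tissue, fewer cells of a type and less RNA per cell cannot be told apart. Of 9 hypoxia genes, 0 rose (1 without A2) and Ndrg1 fell, by 0.55 (SE 0.05, limma adjusted p = 1.64e-06).

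**Figure D3:**
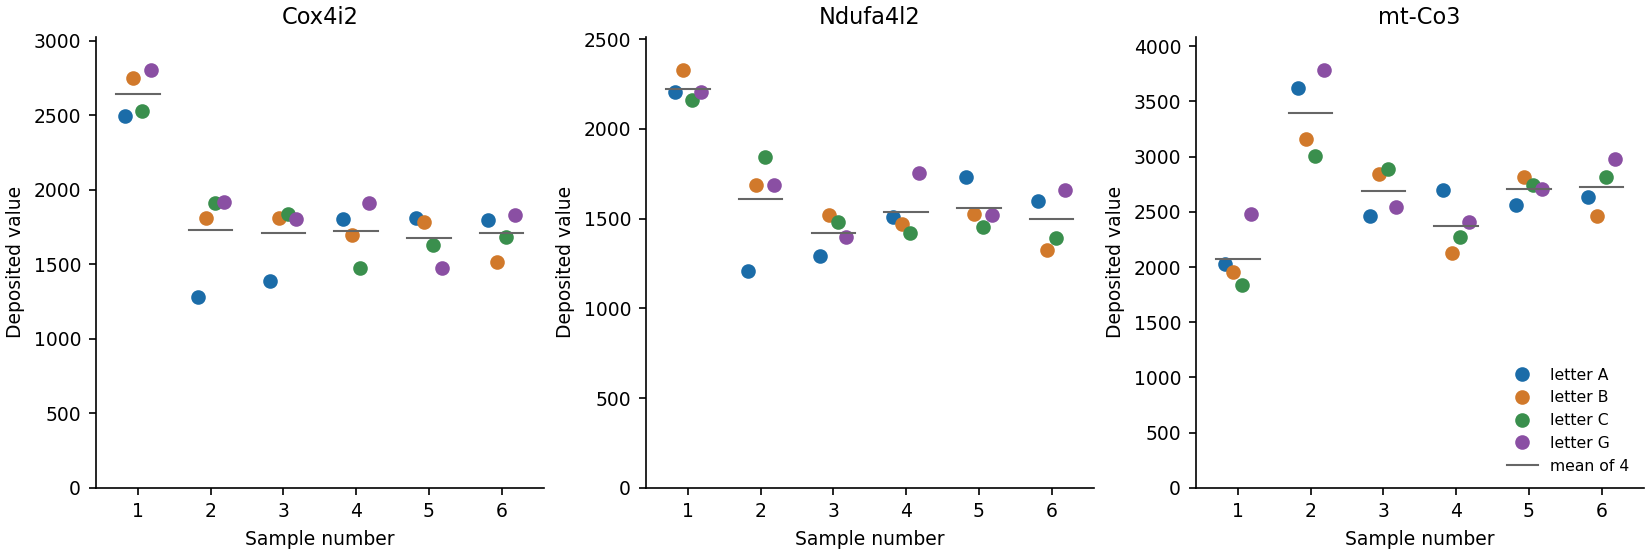
Deposited values (y axes from 0) of Cox4i2, Ndufa4l2 and mt-Co3 in all 24 samples by sample number, coloured by letter, with means of 4 as lines. The 4 samples of number 1 lie above all others for Cox4i2 (2499 to 2804) and Ndufa4l2 (2162 to 2327), and for mt-Co3 the 4 samples of number 2 lie above all others (3007 to 3783).

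In number 2, 13 of 27 mitochondrially encoded and 41 of 108 nuclear rows rose. Of 135 members 55 were called, or 40.7%, beside 21.8% of all rows; 54 were higher (11.5% of all rows) and only the complex I assembly factor Ndufaf6 was lower, by 0.31 (SE 0.08, limma adjusted p = 0.00589; 10.3% of all rows were lower). The higher ones held 12 of 12 mitochondrially encoded protein genes, mt-Rnr1, and 41 nuclear rows: 12 of 36 of complex I, 2 of 4 of complex II, 5 of 8 of complex III, 8 of 18 of complex IV, 10 of 17 of complex V, 1 assembly factor and 3 copies. Median log2 differences were 0.35 for the mitochondrially encoded protein genes and 0.31 for all 27 mitochondrially encoded rows. They were 0.13 for nuclear rows and 0.01 for all rows.

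For complex IV, mt-Co2 was 17415 in A2, 14708 in B2, 13796 in C2 and 17232 in G2. It rose by 0.37 (SE 0.06, limma adjusted p = 9.26e-05), although A6 (14524) and A4 (14431) lay above C2. mt-Co3 was 3619, 3157, 3007 and 3783, all above the other 20 samples, whose highest was 2981, and rose by 0.44 (SE 0.07, limma adjusted p = 0.000133). Of complex I, mt-Nd6, the protein gene on the opposite strand of the mitochondrial genome from the rest, rose by 0.53 (SE 0.10, limma adjusted p = 0.000589). mt-Nd1 was 29433 to 35368 in number 2 and at most 28925 elsewhere.

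Among nuclear subunits, Sdhb, the iron-sulfur subunit of complex II, was 8046 in A2, 6067 in B2, 6294 in C2 and 5878 in G2, with a log2 change of 0.25 (SE 0.05, limma adjusted p = 0.00148). Its partner Sdha, the flavoprotein, had a difference of -0.06 that did not pass (limma adjusted p = 0.319). Uqcrfs1, the Rieske iron-sulfur protein of complex III, rose by 0.26 (SE 0.06, limma adjusted p = 0.00277). Atp5f1, a stator subunit of ATP synthase, was 11002, 7274, 8064 and 7359, all above the other samples' highest of 6984. With mt-Nd1 and mt-Co3 it made 3 members with all 4 values above the other 20, or 2.22%, beside 1.11% of all rows. Cox5a, a complex IV subunit, was 6983 in A2 and 4699, 5092 and 4235 in B2, C2 and G2. Ndufa11, whose promoter is printed above, rose by 0.25 (SE 0.06, limma adjusted p = 0.00675).

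The count of number 2 moved with A2, the library with fat RNA. Without A2, 23 members were called, 9 mitochondrially encoded and 14 nuclear, and without A2, A4 and B4 there were 21, 10 and 11. Over all 27 mitochondrially encoded rows the median was 0.31 with every sample and 0.26 without A2. The nuclear median was 0.13 with every sample and 0.08 without A2. mt-Nd1, mt-Nd2, mt-Co2, mt-Co3, mt-Nd6, mt-Cytb, mt-Atp6, Sdhb and Uqcrfs1 kept their calls in all 32 alternatives, whereas Atp5a1, the alpha subunit of ATP synthase, lost its call in 24 and Cox8a in 15. Ucp1 was at most 3.19 in B2, C2 and G2. The part of fat RNA in the A2 values was not tested.

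Other lists moved in number 2. All 6 T cell, 5 of 6 dividing cell and 5 of 8 alveolar type 2 markers rose, and 7 of 7 endothelial, 5 of 6 alveolar type 1, 5 of 6 red blood cell, 3 of 4 club cell and 4 of 7 ciliated cell markers fell; their part in the result was not tested. Among glycolysis genes 10 of 15 rose, led by Hk2, a hexokinase, at 1.18 (SE 0.15, limma adjusted p = 1.28e-05), but only 3 did so without A2. Mitochondrial ribosome genes rose in 24 of 82 cases, and in 5 without A2. Of 11 citric acid cycle genes 2 rose, or 1 without A2; 11.5% of all rows were higher. Fh1, fumarate hydratase, rose by 0.42 (SE 0.07, limma adjusted p = 0.000128). Of 11 regulators of mitochondrial genes 2 rose and 4 fell, and without A2 the counts were 2 and 1. Esrra, an orphan nuclear receptor that drives respiratory genes, rose by 0.26 (SE 0.05, limma adjusted p = 0.00135), while Ppargc1a, the coactivator PGC-1alpha, fell by 0.36 (SE 0.09, limma adjusted p = 0.00634). Mthfd2, an enzyme of mitochondrial folate metabolism, rose by 1.02 (SE 0.12, limma adjusted p = 1.10e-05), and 3 of 12 mitochondrial stress genes rose and 1 fell (3 and 0 without A2).

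In number 6, 18 of 108 nuclear rows fell and 0 of 27 mitochondrially encoded rows passed. Of 135 members 18 were called, or 13.3%, beside 8.13% of all rows. All 18 were lower (4.02% of all rows were lower) and all were nuclear: 6 of complex I, 1 of complex II, 1 of complex III, 3 of complex IV, 5 of complex V, 1 assembly factor and 1 copy. The log2 difference was negative for 98 of 108 nuclear rows, with a median of -0.12, while the mitochondrially encoded median was 0.04. The difference between the 2 classes was not tested.

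Ndufa8, a complex I subunit, was 3401 in A6, 2945 in B6, 3034 in C6 and 3301 in G6, and fell by 0.22 (SE 0.04, limma adjusted p = 0.00406). Uqcr10, a small subunit of complex III, was 1091, 859, 1121 and 1028, and fell by 0.31 (SE 0.06, limma adjusted p = 0.00465), with A1 (1116) inside their range. The general complex IV subunit Ndufa4 was 4465, 4418, 4374 and 4647, against 4504 to 6440 elsewhere, so that only G6 overlapped, and fell by 0.22 (SE 0.05, limma adjusted p = 0.00651).

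Atp5b, the catalytic beta subunit of ATP synthase, was 50776, 51472, 51984 and 54071 in number 6, below the lowest of the others, 55199. It fell by 0.18 (SE 0.05, limma adjusted p = 0.0368). Cox7b was 2256, 2115, 2180 and 2240, below 2334, the lowest elsewhere. These 2 members, or 1.48%, had all 4 values below the other 20 samples, beside 0.212% of all rows. Atp5k, whose promoter is printed above, rose in number 2 by 0.22 (SE 0.05, limma adjusted p = 0.00509) and fell in number 6 by 0.23 (SE 0.05, limma adjusted p = 0.00985). As these contrasts share samples, the calls are not independent.

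The number 6 count moved with single libraries. It was 3 without A6 (Ndufa8, Ndufa3 and Uqcr10), 2 without B6 (Ndufb3 and Ndufa4) and 8 without C6, where 7 were lower and 1 mitochondrially encoded row was higher. It was 18 without A2, A4 and B4. Ppargc1a rose in number 6 by 0.53 (SE 0.09, limma adjusted p = 0.0013), and Gabpa, a further regulator, by 0.16 (SE 0.04, limma adjusted p = 0.0229). Of the 11 regulators 0 fell, or 1 without A2. Of 82 mitochondrial ribosome genes 4 fell, or 4.88%, beside 4.02% of all rows, and 7 fell without A2. In number 6, 4 of 8 alveolar type 2 and 3 of 9 pericyte and smooth muscle markers fell, such as Acta2 by 0.66 (SE 0.15, limma adjusted p = 0.00978), while 5 of 6 T cell and 4 of 6 B and plasma cell markers rose. Their part in the result was not tested.

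Numbers 3, 4 and 5 showed few calls. None of the members was called in number 3 (4.98% of all rows) or number 5 (1.97%). In number 4, 3 complex I subunits were higher (2.72% of all rows were higher and 4.74% called): Ndufa8 by 0.19, Ndufb10 by 0.17 and Ndufs7 by 0.18. None of the 3 calls was left without A4 or without B4, the libraries with skeletal muscle RNA. All 4 columns of number 4 were also of the kind that holds values between 0 and 0.5, as were 13 of the 24; with the kind of column as a term, 0 members were called. Of the mitochondrial stress genes, Ddit3, a stress transcription factor, rose in number 4 by 0.51 (SE 0.05, limma adjusted p = 2.44e-05), as did 2 others of the 12. Without A2, A4 and B4, 1 of the 12 was higher in number 4.

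The muscle forms of complex IV were compared with heart muscle RNA, because rodent lung samples can hold cardiac muscle of the pulmonary veins. The log2 values of 10 heart muscle markers (Myh6 and Actc1 among them), each centred on its own mean, were averaged to a score. Cox6a2 ranged from 19.9 in C4 to 2115 in A4, the widest spread among the members, with 455 in B4, 413 in A2, 409 in G5 and 20.3 in G6. It rose with the score over the 24 samples, with Pearson's r = 0.903 and Spearman's rho = 0.91 (two-sided permutation test with 100000 resamples, adjusted p over the 6 genes = 6e-05 for both, the smallest they can give). Without A4 and C3, the 2 samples farthest from the median score, r was 0.869. Taken as deviations from the mean of each number, r was 0.93.

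Cox8b was 1139 in A4 and 930 in A2 and between 250 and 574 in the other 22 samples. The heart muscle score of A2 was 0.44. The same kind of score for brown fat markers was highest in A2 (5.10) and A4 (3.02). The part of fat RNA in the Cox8b values was not tested. The r of Cox8b with the heart muscle score was 0.587 and its rho 0.552 (permutation test, adjusted p = 0.00834 and 0.017). Without A4 and C3 its r was 0.395 and its rho 0.474 (permutation test, adjusted p = 0.202 and 0.0815), so that the call rests on those samples. Taken as deviations from the mean of each number, r was 0.517 and rho 0.408 (permutation test, adjusted p = 0.031 and 0.147), so that only r passed. Cox8b was also among the 18 members called in number 6, at -0.65 (SE 0.18, limma adjusted p = 0.0309). Cox7a1, the third muscle form, was 441 in A2, its lowest, 766 in A4 and 938 in A6, its highest, and had r = 0.093 and rho = 0.144 (permutation test, adjusted p = 0.665 and 0.594). The general forms gave r = 0.134 for Cox6a1, 0.211 for Cox7a2 and 0.151 for Cox8a (permutation test, adjusted p = 0.636 for each), with rho = 0.113, 0.128 and 0.277 (adjusted p = 0.594, 0.594 and 0.377). Myh6, a heart muscle myosin, ranged from 2.01 in A3 to 18330 in A4.

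**Figure D4:**
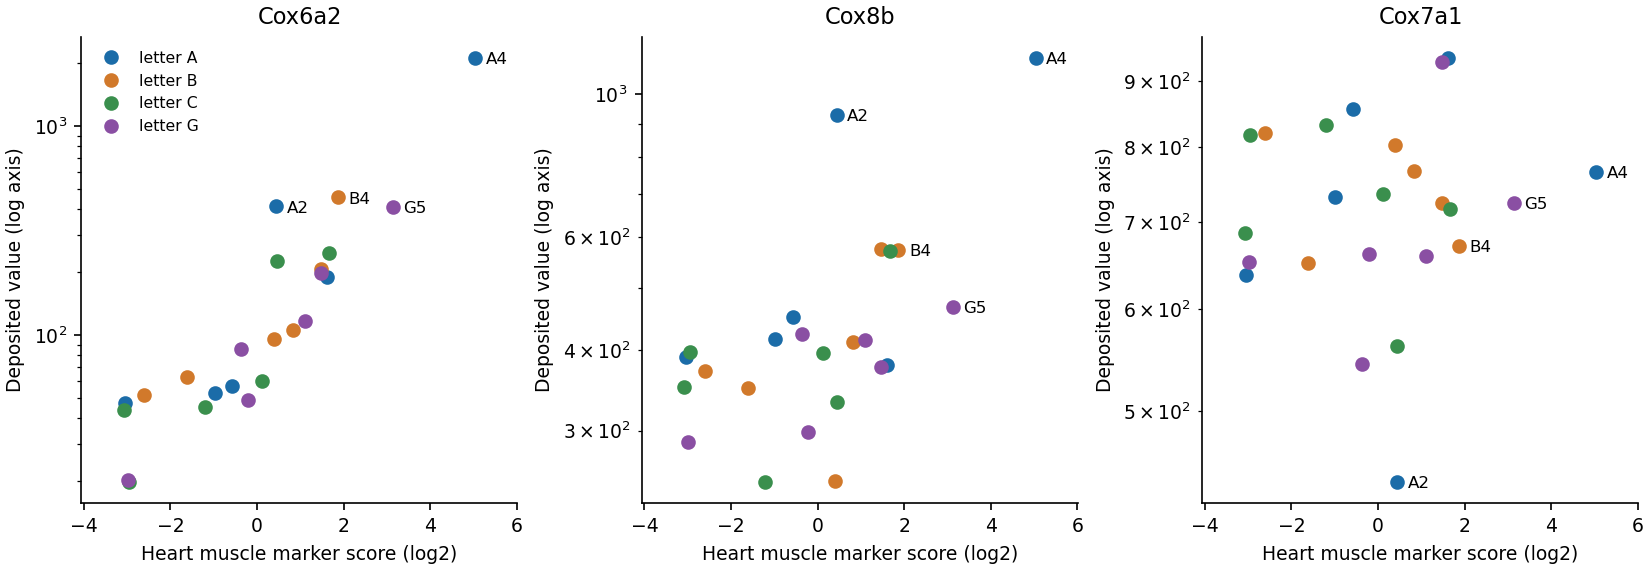
Deposited values (log y axes with their own ranges) of Cox6a2, Cox8b and Cox7a1 against the heart muscle marker score (log2, x axes) in 24 samples, coloured by letter. Cox6a2 rises with the score from 19.9 to 2115 (r = 0.903), the upper end of Cox8b is A4 and A2, and Cox7a1 shows no such order (r = 0.093).

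Further lists of the pathway changed little by letter: 0 genes of any list passed the F test across the letters. Across the numbers, 0 of 7 complex I assembly genes, 2 of 6 for complex III, 4 of 17 for complex IV and 0 of 3 for complex V passed, beside 31.5% of all rows. Among them, Bcs1l, needed to insert the Rieske protein into complex III, fell in number 6 by 0.27 (SE 0.07, limma adjusted p = 0.0178), and Pet100, a complex IV factor, rose in number 2 by 0.28 (SE 0.06, limma adjusted p = 0.00364). Genes that copy and transcribe mitochondrial DNA passed in 3 of 14 cases. Polrmt, the mitochondrial RNA polymerase, fell in number 1 by 0.15 (SE 0.04, limma adjusted p = 0.0233) and in number 2 by 0.13 (SE 0.04, limma adjusted p = 0.0376), and rose in number 4 by 0.25 (SE 0.04, limma adjusted p = 0.00188). Of these 14 genes 0 were called in number 2 without A2, and 0 in number 4 without A2, A4 and B4. Tfam, which packages and helps to transcribe mitochondrial DNA, had differences of -0.02 in number 1 and 0.02 in number 2 that did not pass (limma adjusted p = 0.868 and 0.885).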

How the data were processed

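Total RNA of 24 rat lung samples was sequenced after mRNA isolation, per the labels' protocols. The authors deposited a table of 30667 gene rows and 24 columns of non-negative signal values. Column sums lie within a ratio of 1.07, so these deposited signal values were scaled before deposit; the method and the counting step are not given in the sources used here. Per the submitters' processing notes, STAR and the build GRCm38 were used. That is a mouse build, the organism is labelled rat and row names have the mouse form; the effect on single genes was not tested. In 13 columns, 1462 to 1840 values lie between 0 and 0.5 and fewer than 20 are 0, whereas the other 11 hold more than 1000 zeros and no such value.

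Samples were grouped by the letter and number of their titles. Values were taken as log2(value + 1), with no filter, and tested with limma-trend (limma 3.58.1, R 4.3.3) over all rows: 4 letters alone, or 6 numbers with letter as a term. P-values were adjusted by Benjamini-Hochberg over all 30667 rows, with a threshold of 0.05. A fold change on this scale understates that of rows with low values. As the values were not raw counts, the count test planned for that case was not used. Code was tested on simulated data. Depth is unknown, so no counting interval is given.

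Genes set to be named were the mitochondrially encoded protein genes, 20 preset subunits and the 6 members with the largest SD. Also set were the members with the smallest p in each comparison (8 across numbers, 4 across letters, 1 in each contrast). For each pathway list, the 2 genes with the smallest p across numbers were added. Not all of these are described above: Atp5j, Cox7c, mt-Tq and Uqcrc1 are examples left out. Other named members (such as Cox6b2, Cox5a, Cox7b, Atp5k, Ndufa11 and those left after a library was omitted), further list genes and marker genes were chosen after their values were seen. Members and lists were chosen with earlier results of these data known. The labels do not say that a number pairs samples. Correlations of same-numbered samples' deviations from letter means exceeded 0.1 in 6 of 6 cases for B with A and for C with B, and in fewer for each other pair of letters. Alternatives were other scalings, a pseudocount of 0.1, a mean of at least 10, robust variance, the replicate block, and each sample left out. Chosen after seeing the data were the fits without A2, A4 and B4 and with the kind of column as a term. Motifs were searched in RefSeq promoters of build GRCr8.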

Additional observations from a re-analysis of the deposited data

Results flagged for a closer look

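By Dixon's gap, 192 groups of 6 samples were examined (2 shares and the members set to be named, within each letter). In these, 21 extreme samples stood far from the other samples of their letter. About 9.6 would be flagged by chance in independent groups not chosen by their values. Some members were named for a small p or a large SD, and the groups share samples. No excess over chance can therefore be read from the 21.

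In A2, the library with brown fat RNA, 5 values stood above the other A samples: mt-Nd2 at 16654, Uqcrc2 at 8244, Uqcrfs1 at 8739, Ndufs1 at 6753 and Ndufab1 at 1372. In A4, the library with skeletal muscle RNA, Cox6a2 was 2115 against at most 413 in the other A samples. In G2, 5 mitochondrially encoded genes stood above the other G samples: mt-Nd2 at 14800, mt-Co1 at 110682, mt-Co2 at 17232, mt-Atp6 at 8110 and mt-Cytb at 54146. Ucp1 was 3.19 and Acta1 was 836 in G2. Its heart muscle markers summed to 8590, against 687 in G6 to 27809 in G5 among the other G samples. The part of other tissues in the G2 values was not tested. In number 1, Cox4i2 was 2750 in B1 and 2804 in G1, and Ndufa4l2 was 2327 in B1. In C2 the nuclear share was 0.656%. In G4, Cox6a1 was 9697.

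Low values stood apart in B6, where the nuclear share was 0.564%, Ndufs1 was 4411 and Uqcr10 was 859. Single values that complete the set were Sdhaf4 at 392 in A5 (above) and Ndufs4 at 2470 in G3 (below).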

How the results depend on the processing

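Comparisons of letters gave 0 called members under every alternative run, except that G against A gave 1 with the replicate block by number: Ndufaf1, a complex I assembly factor, at -0.35 (limma adjusted p = 0.0382). No other letter call changed with the block. The number counts without a letter term, and so without a replicate block, stayed within 1.5 times the reported ones. Without A2, A4 and B4, counts of members were 31 across the 6 numbers, 21 in number 2, 1 in number 3 (Ndufa4l2, lower) and 0 in number 4. With the kind of column as a term, number 4 gave 0. With a mean of at least 10, number 3 gave 1 (Ndufs4, lower). Leaving out each sample in turn gave 42 to 62 members across the 6 numbers, 8 to 15 in number 1, 23 to 61 in number 2, 0 to 2 in number 3, 0 to 6 in number 4, 0 to 0 in number 5, 2 to 26 in number 6 and 0 to 0 across letters and for each pair of letters. The correlation of Cox8b with the heart muscle score was 0.395 without the 2 farthest samples and 0.362 without A4 and B4. The cause of these changes was not tested. For single named members, 1372 of the alternative values kept their direction and side of the threshold, 91 lost a call and 8 gained a call, and none changed sign. Depth is unknown, so what it limits could not be stated.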
